A study of Macaca mulatta with 8 samples.

Results

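Heat shock proteins and chaperonins were followed across transferred regulatory T cells, endogenous regulatory T cells and conventional CD4 T cells of rhesus macaques. The members were taken by symbol: every gene in the table whose name starts with HSPA, HSPB, HSP90, DNAJA, DNAJB or DNAJC, together with HSPD1, HSPH1, TCP1 and CCT2 to CCT8. This gave 66 of 16429 genes. HSPBP1 and HSPBAP1 entered by their first letters and are no small heat shock proteins. HSP90AA1, HSPA1A and HSPA1B had no line under those symbols and were not analysed here. HSPE1, the partner of HSPD1, had none either, but the reference table gives that symbol to 3 identifiers that the file leaves unnamed or names otherwise. One of them, HSPE1-MOB4 in the file, had 65.5 CPM in transTreg and 47.3 CPM in Tconv cells on day 3, classes described below, and was not counted as a member.

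Chaperones bind unfolded protein chains and use ATP to let them fold. HSP70 proteins take up chains with the help of J proteins (the DNAJ genes), HSP110 proteins such as HSPH1 exchange the nucleotide on HSP70, HSP90 finishes signalling proteins such as kinases and receptors, and the ring-shaped chaperonin TRiC, built from TCP1 and the CCT subunits, folds actin and tubulin. Mitochondria and the endoplasmic reticulum hold their own sets, and T cells are known to raise many of these genes when they are activated and grow.

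The study sorted 4 populations of cells on each of 2 days, day 3 and day 20, and made 1 library from each sort and day. CFSE-positive cells carry a dye that marks the transferred regulatory T cells. A second sort took CD25high CD127low cells, where endogenous regulatory T cells are enriched, and the remaining ones took cells positive for CD127 that either carried CD25 or lacked it. All came from cryopreserved blood mononuclear cells that were thawed on a single day and enriched magnetically for CD4. The labels name no animal, age or drug treatment, so it cannot be told whether the libraries share an animal. The authors' deposited annotation puts each cell in 1 of 3 classes: transTreg, endoTreg and Tconv (conventional). Values below are for transTreg cells of the CFSE-positive library (1064 cells on day 20, 4079 on day 3), endoTreg cells of the CD25high CD127low library (938 on day 20, 1301 on day 3) and, as the main reference, Tconv cells of the CD127-positive CD25-negative library (3620 on day 20, 2960 on day 3). Tconv cells also made up 57.9% (day 20) and 60.9% (day 3) of the CD25high CD127low library, which allows a comparison inside that library.

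The files held 25397 cells with 67627231 UMIs, between 2992787 and 12149559 per library. Counts were summed over the cells of a class and given as CPM, counts per 1e+06 UMIs of that class. Only the 3′ end of each transcript was counted, so a level depends on how well that end was captured as well as on abundance, and comparisons are between groups for 1 gene. No sort was sequenced more than once on a day, so nothing could be tested and a gene was called only by size: at least 2-fold on log2(CPM + 10), with at least 50 CPM in a compared group, and for 2 classes the same way on both days. Intervals are exact 95% limits that cover counting error only, not the spread between animals. The classes and clusters were drawn by the authors from these same cells and genes, so differences between them are descriptions. FOXP3, the defining factor of regulatory T cells, had 132 CPM in transTreg cells on day 20 and 259.6 CPM on day 3, 139.9 and 160.2 CPM in endoTreg cells, and 0.251 and 0.41 CPM in Tconv cells. Marker genes of other cells were present at low levels: summed B cell markers reached 129 CPM, monocyte markers 160 CPM and red cell markers 2510 CPM (Tconv cells of the CD25high CD127low library on day 3, otherwise at most 474 CPM). In all, 382 of 25012 distinct barcodes occurred in more than 1 library.

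The module was carried by few genes. Of 66 members, 21 reached 50 CPM in at least 1 library and 14 did so in every library, 17 reached 10 CPM but never 50, and 28 stayed under 10 CPM everywhere. HSPA8, the constitutive cytosolic HSP70, made up 22.5 to 27.1% of all member UMIs by library, and HSP90AB1, the constitutive cytosolic HSP90, 14.8 to 21.9%. DNAJB1 and HSPB1, both known for heat induction, were low or near 0. DNAJB1, the main J partner of stress-induced HSP70, lay between 9.01 and 28.1 CPM over the classes described here, highest in transTreg cells on day 3. HSPB1, a small heat shock protein that binds unfolded chains without ATP, lay between 0.359 and 4.49 CPM. Both were chosen for their known induction, outside the rule for named genes. HSP90AA1, HSPA1A and HSPA1B were not analysed, so these values do not describe heat-induced genes as a group. HSPB9 had no UMI in any cell.

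Summed over all 66 members, transTreg cells held 3736 CPM on day 20 and 4748 CPM on day 3. EndoTreg cells held 3619 CPM on day 20 and 4494 CPM on day 3, and Tconv cells 3688 CPM on day 20 and 3338 CPM on day 3. The sums lay close together on day 20, while on day 3 both regulatory classes stood above Tconv cells, by 1.42-fold (1.40 to 1.44) for transTreg. That gap depends on the scale: the day 3 fold was 1.11 with TMM factors, 1.07 with median-of-ratios factors and 1.06 per UMI of other named genes. The last scale leaves ribosomal protein, mitochondrial, hemoglobin and unnamed genes out of the total. The other named genes took 44.4% of transTreg UMIs on day 20 and 55.0% on day 3, against 42.7% and 41.0% of Tconv UMIs, and the median log2 ratio of all genes tested between transTreg and Tconv cells on day 3 was 0.53 in CPM, 0.19 with TMM factors, 0.14 with median-of-ratios factors and 0.10 per UMI of other named genes.

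**Figure D1:**
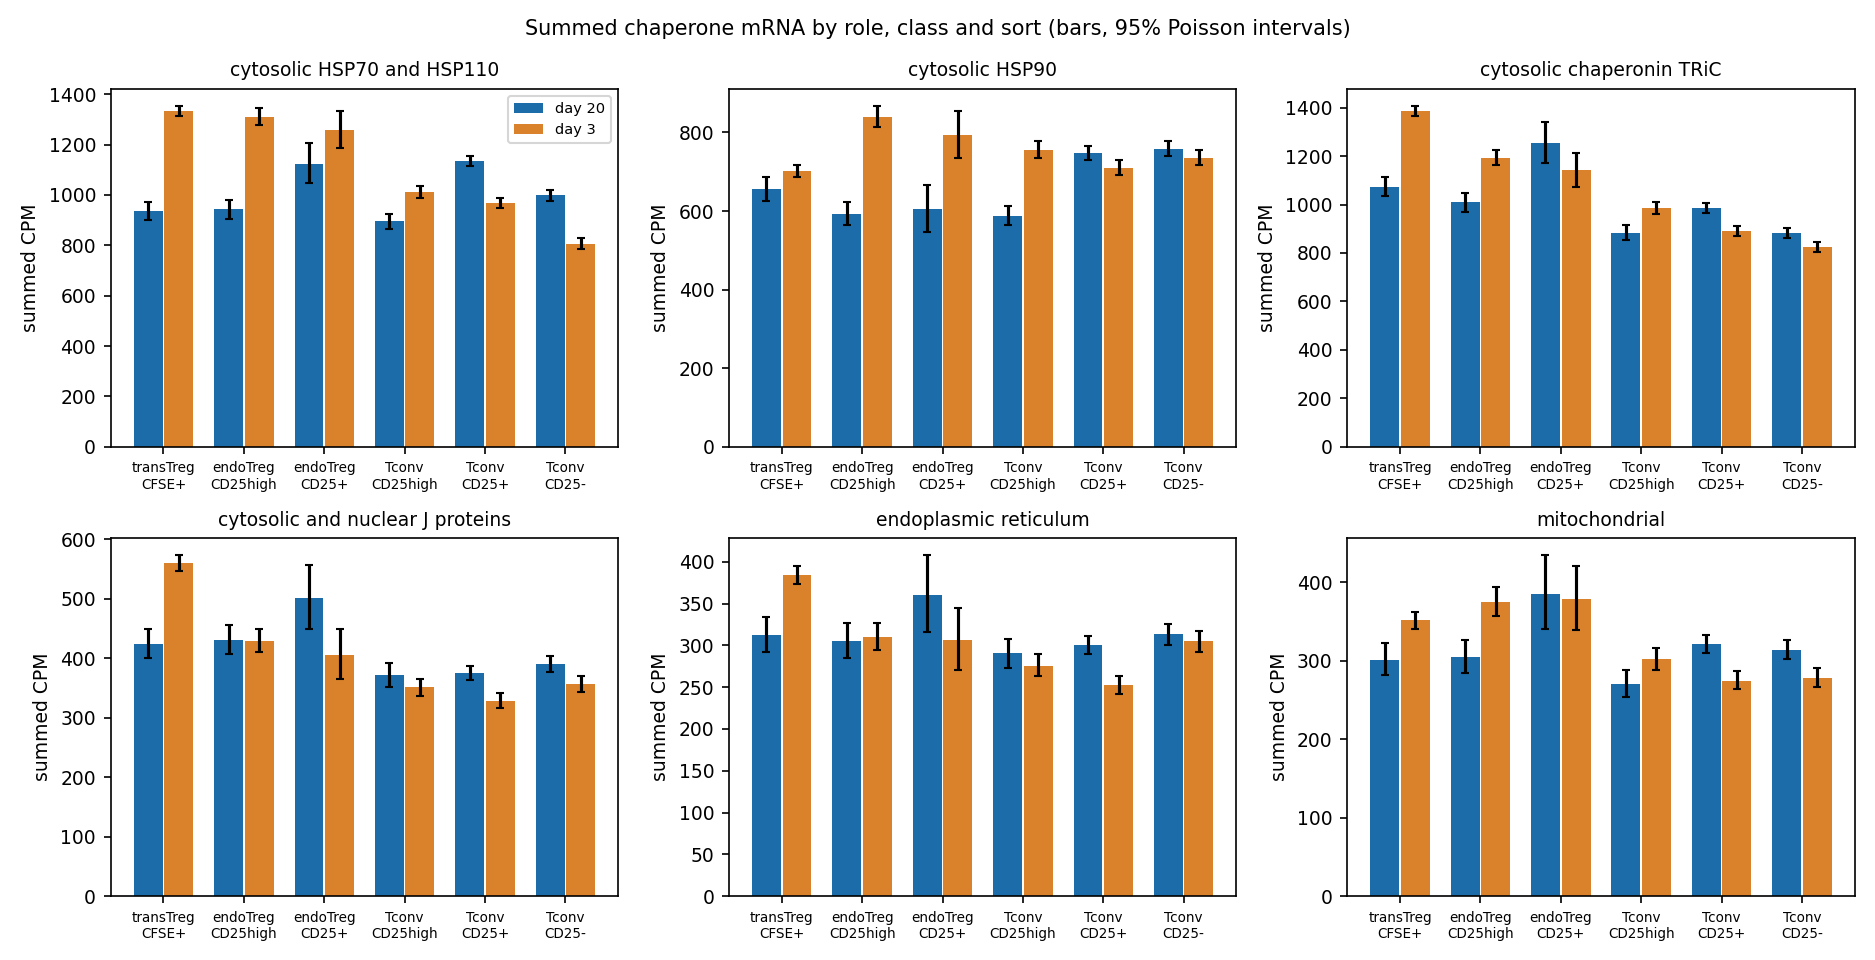
Summed CPM of the members by role (panels) for each class and library (horizontal positions) on day 20 and day 3 (colours), with exact 95% counting limits as black lines. On day 3 the sum over TRiC subunits was 1385 CPM in transTreg cells and 825 CPM in CD127-positive CD25-negative Tconv cells.

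HSPH1, the HSP110 nucleotide exchange factor of HSP70, was the member that separated the classes most. It stood at 35.1 CPM (28.5 to 42.8) on day 20 and at 63.3 CPM (58.9 to 67.98) on day 3 in transTreg cells. In endoTreg cells HSPH1 had 18.8 CPM (13.9 to 24.7) on day 20 and 32.9 CPM (27.7 to 38.7) on day 3. In Tconv cells it had 15.7 CPM (13.0 to 18.7) on day 20 and 10.7 CPM (8.42 to 13.3) on day 3. The order transTreg, endoTreg, Tconv held on both days, but on day 20 the endoTreg and Tconv limits overlapped. Tconv cells of the CD25high CD127low library were as low, at 10.3 CPM (day 20) and 14.02 CPM (day 3). HSPH1 was 1.87-fold (1.32 to 2.69) higher in transTreg than in endoTreg cells on day 20 and 1.93-fold (1.61 to 2.32) on day 3. Against Tconv cells the fold was 2.24 (1.70 to 2.95) on day 20 and 5.94 (4.70 to 7.60) on day 3. Within the CD25high CD127low library, endoTreg cells exceeded Tconv cells 1.82-fold (1.17 to 2.84) on day 20 and 2.34-fold (1.79 to 3.09) on day 3.

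HSPH1 passed the floor of 50 CPM only through transTreg cells on day 3, where it had to differ, and so it was not called on both days. Its log2 ratio to Tconv cells was 0.81 on day 20 and 1.83 on day 3, and on day 3 it stayed between 1.20 and 2.46 under every scaling and pseudocount tried. The ratio to endoTreg cells was 0.65 on day 20 and 0.77 on day 3. Markers of other cells also differed between these groups. Summed monocyte markers were 72.4 CPM in transTreg cells on day 20 and 145 CPM on day 3, against 72.0 and 52.6 CPM in endoTreg cells and 6.64 and 4.23 CPM in Tconv cells. Summed B cell markers were 40.5 CPM in transTreg cells on day 20 and 107 CPM on day 3, against 94.2 and 111 CPM in endoTreg cells and 18.5 and 16.8 CPM in Tconv cells. With cells that carried such markers or had over 2 times the median UMIs left out, the HSPH1 log2 ratio to Tconv cells was 0.83 on day 20 and 1.82 on day 3.

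The share of cells with an HSPH1 UMI, once each cell was thinned to 1000 UMIs, stood in the same order. It is drawn from the same UMIs as the CPM values, and its order was not set against counting error. That share was 3.29% of transTreg cells on day 20 and 5.73% on day 3, 2.45% and 3.54% of endoTreg cells, and 1.55% and 0.743% of Tconv cells. Without thinning, HSPH1 was seen in 8.46% and 16.4% of transTreg cells, 5.01% and 9.61% of endoTreg cells, and 3.26% and 2.64% of Tconv cells. Median UMIs per cell were 2599 and 2796 in transTreg cells, 2551 and 3216 in endoTreg cells, and 2185 and 2441 in Tconv cells. Free RNA gives UMIs in cells that do not express a gene, and none of these classes is known to lack HSPH1, so no share serves as its background.

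By the authors' finer names, HSPH1 differed between effector and naive-like cells on day 3 and not detectably on day 20. On day 20 it had 33.3 CPM (26.6 to 41.1) in transferred naive-like cells, against 16.5 CPM (10.3 to 25.0) in endogenous effector and 16.6 CPM (10.0 to 25.9) in endogenous naive-like cells. On day 3 transferred effector cells held 83.6 CPM (74.0 to 94.0), transferred cells in transition 57.3 CPM (52.2 to 62.8) and transferred naive-like cells 32.2 CPM (15.4 to 59.2), the last from few cells and only 10 UMIs of the gene. Endogenous effector cells held 53.5 CPM (43.0 to 65.9) and endogenous naive-like cells 18.9 CPM (14.1 to 25.0). At each named state the transferred cells were the higher ones on day 3, although the limits of the transferred and endogenous naive-like cells overlapped.

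**Figure D2:**
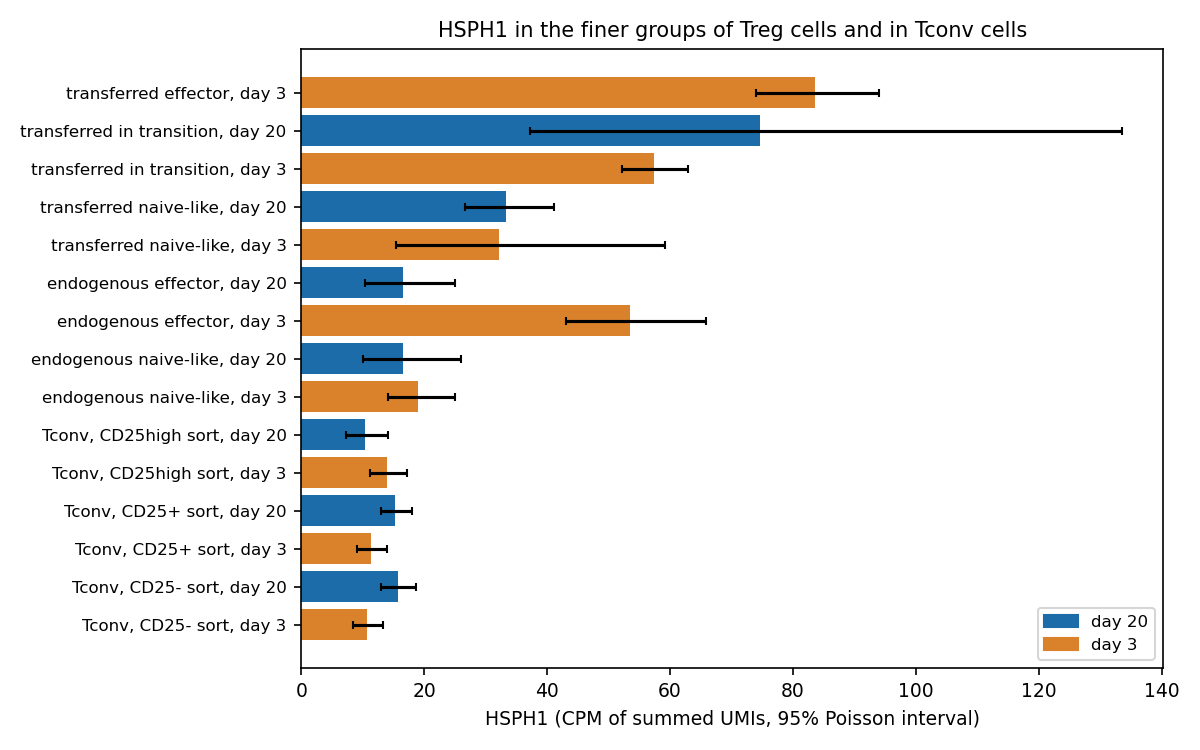
HSPH1 in CPM with exact 95% counting limits for each finer name of the regulatory T cells and for Tconv cells of each sort, on day 20 and day 3. It reached 83.6 CPM in transferred effector cells of day 3 and lay at 10.7 CPM in Tconv cells of that day.

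As whole classes in CPM, the regulatory T cells were not separated from each other by HSPA8 itself. On day 20 it had 842 CPM in transTreg cells, 869 CPM in endoTreg cells and 930 CPM in Tconv cells. On day 3 it had 1198 CPM in transTreg cells, 1218 CPM in endoTreg cells and 752 CPM in Tconv cells. HSPA8 was thus highest in Tconv cells on day 20 and lowest in them on day 3, with a transTreg to Tconv fold of 0.905 (0.864 to 0.948) and 1.59 (1.54 to 1.64). The median log2 ratio of all genes between transTreg and endoTreg cells was -0.04 on day 20 and 0.32 on day 3. At equal state, the transferred to endogenous HSPA8 fold was 0.933 (0.886 to 0.983) in effector cells of day 3. In naive-like cells of day 20 it was 1.04 (0.967 to 1.13). Relative to the median of all genes, those log2 ratios were -0.31 and -0.13. HSPA4, a second HSP110, stood at 37.3 CPM in transTreg, 35.6 CPM in endoTreg and 36.1 CPM in Tconv cells on day 20. It stood at 49.7, 40.3 and 32.0 CPM in the same classes on day 3, under the floor in all of them. HSPA4 lies outside the rule for named genes and was picked after its values were seen, as another HSP110 in the table.

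HSP90AB1 was ordered differently. On day 20 it had 655 CPM in transTreg cells, 593 CPM in endoTreg cells and 759 CPM in Tconv cells, and on day 3 702, 840 and 736 CPM. It was lower in transTreg than in Tconv cells on both days, 0.864-fold (0.819 to 0.910) and 0.954-fold (0.922 to 0.988), and this direction held under all scalings tried. Relative to the median of all genes, its log2 ratio was -0.33 on day 20 and -0.60 on day 3. Among endogenous regulatory T cells of 1 library, HSP90AB1 was lower in effector cells, at 508 CPM on day 20 and at 607 CPM on day 3, than in naive-like cells, at 691 CPM on day 20 and at 993 CPM on day 3. Those folds were 0.735 (0.662 to 0.815) and 0.612 (0.568 to 0.658), and on day 3 it was the member lower by at least 1.5-fold, as were 5.43% of all genes tested. No other member at the floor was 1.5-fold lower in effector cells on either day. Transferred naive-like cells of day 20 had 659 CPM, close to the 691 CPM of their endogenous counterparts.

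TRiC is a ring of 8 different subunits, all of which were at the floor. Their sum was 1074 CPM in transTreg, 1009 CPM in endoTreg and 883 CPM in Tconv cells on day 20. On day 3 it was 1385 CPM in transTreg, 1194 CPM in endoTreg and 825 CPM in Tconv cells. The sum was 1.22-fold (1.17 to 1.27) higher in transTreg than in Tconv cells on day 20 and 1.68-fold (1.63 to 1.73) on day 3, and it stayed above 1 under every scaling, at 1.09 or more on day 20 and 1.25 or more on day 3. Against endoTreg cells the day 20 fold was 1.06 (1.01 to 1.12). The day 3 fold was 1.16 (1.12 to 1.20) in CPM but 0.991 with TMM factors and 0.949 with median-of-ratios factors, so its direction depends on the scale.

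The subunits differed among themselves. CCT8 had 198 CPM in transTreg, 211 CPM in endoTreg and 152 CPM in Tconv cells on day 20, and 278 CPM in transTreg, 245 CPM in endoTreg and 136 CPM in Tconv cells on day 3. CCT3 had 293, 246 and 219 CPM on day 20 and 397, 314 and 216 CPM on day 3 in transTreg, endoTreg and Tconv cells. CCT5 had 153, 157 and 118 CPM on day 20 and 189, 183 and 105 CPM on day 3 in the same order. In these 3 subunits both regulatory classes stood above Tconv cells on both days, and the transTreg fold on day 3 was 2.04 (1.9 to 2.20) for CCT8, 1.84 (1.74 to 1.95) for CCT3 and 1.79 (1.65 to 1.94) for CCT5. CCT6A and TCP1, parts of the same ring, differed least on day 3: CCT6A had 56.0 CPM in transTreg cells and 51.4 CPM in Tconv cells on day 3, a fold of 1.09 (0.959 to 1.24), and TCP1 had 63.6 CPM and 48.5 CPM, a fold of 1.31 (1.15 to 1.49). CCT2, CCT4 and CCT7 lay between on that day, with transTreg to Tconv folds of 1.67, 1.44 and 1.44. On day 20 the order was another: CCT6A and TCP1 gave 1.16 each, and CCT2, CCT4 and CCT7 gave 1.03, 1.06 and 1.11, all 5 with limits that included 1.

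Inside the CD25high CD127low library, endoTreg cells exceeded Tconv cells for CCT8 by 1.33-fold (1.19 to 1.5) on day 20 and 1.32-fold (1.21 to 1.43) on day 3. CCT5 gave 1.30-fold (1.14 to 1.49) on day 20 and 1.26-fold (1.14 to 1.38) on day 3. CCT4 gave 1.17-fold (1.001 to 1.36) and 1.26-fold (1.13 to 1.40), and CCT3 1.11-fold and 1.22-fold (1.13 to 1.31). CCT7 gave 0.984 and 1.02 and CCT6A 0.909 and 1.11, with limits that included 1. With state, CCT5 differed most among the subunits on day 20: it had 209 CPM in endogenous effector cells and 97.9 CPM in endogenous naive-like cells on day 20, and 230 CPM and 155 CPM on day 3. On day 20 that 2-fold difference was shared with 13.7% of all genes tested. On day 3 TCP1 differed more, with 67.96 CPM in endogenous effector cells and 41.7 CPM in naive-like cells, a fold of 1.63 (1.24 to 2.14), against 1.49 (1.29 to 1.71) for CCT5; on day 20 its fold was 0.931 (0.641 to 1.35). On day 3 the members 2-fold higher in endogenous effector cells were HSPH1 and DNAJC25, beside 15.5% of all genes. Both passed the floor only through the effector cells. For CCT5, transferred naive-like cells of day 20 had 153 CPM, 1.57-fold (1.27 to 1.95) above the endogenous naive-like cells, a size that 13.7% of all genes in that comparison reached too.

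The cytosolic and nuclear J proteins at the floor were DNAJA1 and DNAJA2, the general J partners of HSPA8, DNAJC8, a nuclear J protein linked to splicing, and DNAJC9, which lies outside the rule for named genes. DNAJA1 had 78.9 CPM in transTreg, 78.4 CPM in endoTreg and 69.7 CPM in Tconv cells on day 20, and 104, 69.3 and 53.1 CPM on day 3. DNAJC8 had 86.8, 83.3 and 81.7 CPM on day 20 and 128, 82.7 and 76.9 CPM on day 3 in transTreg, endoTreg and Tconv cells. DNAJA2 had 64.5, 63.0 and 55.5 CPM on day 20 and 89.5, 68.9 and 54.6 CPM on day 3. In all 3 the transTreg cells of day 3 had the highest value and the Tconv cells of day 3 the lowest. On day 3 DNAJC8 was 1.55-fold (1.38 to 1.74) and DNAJA1 1.5-fold (1.32 to 1.70) above endoTreg cells, and between effector cells alone, transferred over endogenous, the folds were 1.60 (1.34 to 1.93) and 1.58 (1.31 to 1.93). At 1.5-fold on log2(CPM + 10) these 2 were the members higher in transferred effector cells, beside 15.8% of all genes tested.

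DNAJC25 is a J protein summed here with the endoplasmic reticulum set and named for its values, outside the rule for named genes. The transTreg and endoTreg classes as wholes stood above the Tconv cells of the 3 libraries given here. Endogenous naive-like cells did not. DNAJC25 had 48.4 CPM in transTreg cells on day 20 and 65.4 CPM on day 3. EndoTreg cells of the CD25high CD127low library had 46.1 CPM and 45.5 CPM. EndoTreg cells of the CD127-positive CD25-positive library had 58.5 CPM and 63.6 CPM, whereas the Tconv cells of the 3 libraries lay between 31.7 and 36.5 CPM. Within the CD127-positive CD25-positive library the endoTreg to Tconv fold was 1.85 (1.30 to 2.57) on day 20 and 1.98 (1.46 to 2.64) on day 3. It was the member higher by 1.5-fold on both days there, as were 6.83% of all genes tested. DNAJC25 passed the floor of 50 CPM in that library only through endoTreg cells, where it had to differ. Effector cells of the endogenous class held 56.9 CPM on day 20 and 73.4 CPM on day 3, against 32.3 CPM and 24.6 CPM in naive-like cells, a 1.5-fold difference on both days that 33.2% of all genes shared. Here too the floor was passed only through the higher group, the effector cells. Tconv cells of the CD25high CD127low library had 34.9 CPM and 32.1 CPM.

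In mitochondria, HSPD1 (HSP60, the mitochondrial chaperonin) was higher in endogenous than in transferred regulatory T cells as whole classes, which differ in their mix of effector and naive-like cells. HSPD1 had 102 CPM in transTreg, 126 CPM in endoTreg and 119 CPM in Tconv cells on day 20. On day 3 it had 131 CPM in transTreg, 179 CPM in endoTreg and 103 CPM in Tconv cells. The transTreg to endoTreg fold was 0.805 (0.685 to 0.946) on day 20 and 0.732 (0.671 to 0.798) on day 3. At equal state, naive-like cells of day 20 had 103 CPM when transferred and 109 CPM when endogenous, a fold of 0.946 (0.762 to 1.18) that does not show the class difference. Effector cells of day 3 had 131 CPM when transferred and 161 CPM when endogenous, a fold of 0.810 (0.694 to 0.947). EndoTreg cells of the CD127-positive CD25-positive library had 149 CPM and 180 CPM, the highest on each day among the classes described here. HSPA9, the mitochondrial HSP70, and DNAJC19, a J protein of the import machinery, had transTreg to endoTreg folds of 0.935 and 1.10 on day 20 and of 1.05 and 1.11 on day 3, each with limits that included 1.

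In the endoplasmic reticulum, HSPA5 (BiP, its HSP70) had 90.3 CPM in transTreg, 86.3 CPM in endoTreg and 101 CPM in Tconv cells on day 20, and 120, 108 and 110 CPM on day 3. HSP90B1 (GRP94, its HSP90) had 60.9, 57.0 and 72.8 CPM on day 20 and 53.8, 50.5 and 63.5 CPM on day 3. HSP90B1 was thus highest in Tconv cells on both days, with a transTreg to Tconv fold of 0.837 (0.702 to 0.995) on day 20 and 0.847 (0.750 to 0.956) on day 3. The CD127-positive CD25-negative library held 612 cells of the authors' cluster 5, described below, on day 20 and 549 on day 3. HSP90B1 had 128 CPM and 124 CPM in that cluster. The part of cluster 5 in the Tconv values of this compartment was not tested. The sum over the 13 members of this compartment was 313 CPM in transTreg and 313 CPM in Tconv cells on day 20. On day 3 it was 384 CPM and 305 CPM, a fold of 1.26 in CPM and of 0.941 to 0.984 under the other scalings.

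Counted over the module, no member was called at 2-fold on both days in any of the comparisons of 2 classes. Between transTreg and endoTreg cells 0 of 18 members were called, where 0.531% of 1885 genes were called higher and 1.17% lower. Between transTreg and Tconv cells 0 of 18 were called, where 1.89% of 1901 genes were called higher and 1.68% lower. Between endoTreg and Tconv cells of the CD25high CD127low library it was 0 of 18, beside 1.08% of 1757 genes higher and 0.398% lower. On day 3 alone, HSPH1 was 2-fold higher in transTreg than in Tconv cells, as were 14.7% of all genes, and 10 of 21 members were 1.5-fold higher, as were 44.9%. Those 10 were HSPH1, HSPA8, DNAJA1, DNAJA2, DNAJC8, DNAJC25, CCT2, CCT3, CCT5 and CCT8. Of them, HSPH1 and DNAJC25 passed the floor only through transTreg cells. The members' median log2 ratio of transTreg to Tconv cells was 0.08 on day 20 and 0.48 on day 3, beside all-gene medians of 0.12 and 0.53. The transTreg to endoTreg medians were 0.04 and 0.17 beside -0.04 and 0.32, and the endoTreg to Tconv medians 0.10 and 0.16 beside 0.14 and 0.17. On day 3 the members' median lay below that of all genes in all 3 comparisons.

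**Figure D3:**
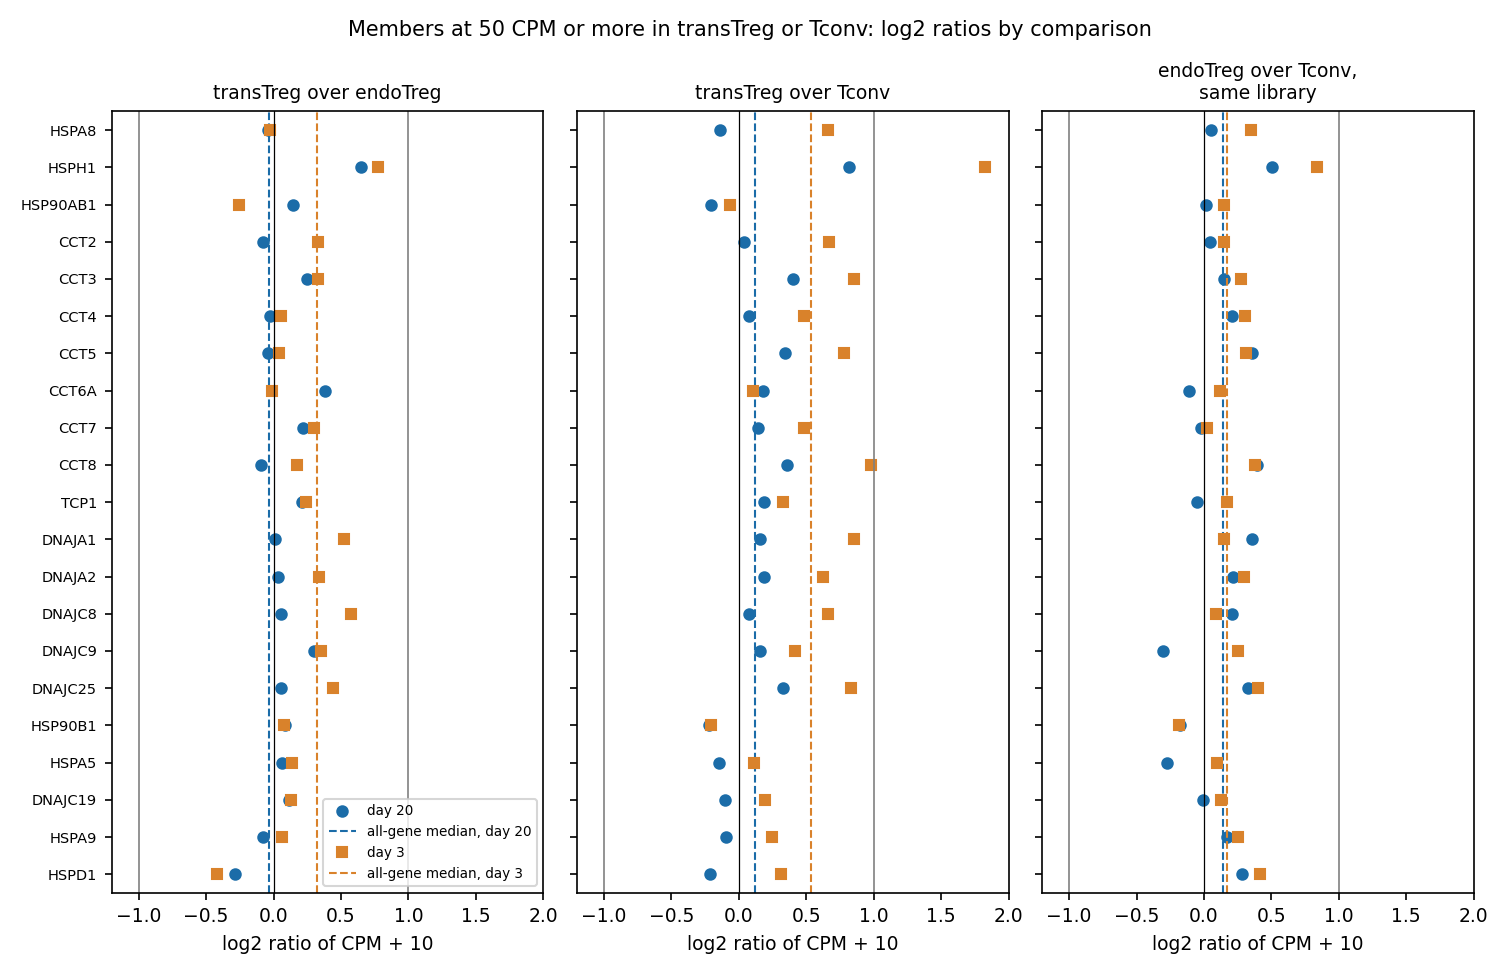
Log2 ratio of CPM + 10 for each member at 50 CPM or more in transTreg or Tconv cells (circles for day 20, squares for day 3) in the comparisons of 2 classes, with the median of all genes tested as dashed lines and 2-fold as grey lines. HSPH1 lies farthest from 0, at 1.83 for transTreg against Tconv cells on day 3, while HSP90AB1 lies below 0 there.

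Between the days the members moved much as all genes did in transTreg cells and in Tconv cells of the CD127-positive libraries. In the CD25high CD127low library they moved lower than all genes on day 20, in endoTreg and in Tconv cells. In transTreg cells the day 20 over day 3 ratio had a median of -0.34 (log2) over 21 members, of which 2 were above 0 and 9 above the all-gene median of -0.33. In endoTreg cells the median was -0.18 over 18 members, with 3 above 0 and 3 above the 0.01 of all genes. In Tconv cells of the same CD25high CD127low library it was -0.10 over 17 members, with 5 above 0 and 4 above the 0.01 of all genes. In Tconv cells of the CD127-positive CD25-positive library it was 0.17 over 18 members, with 17 above 0 and 10 above the 0.12 of all genes. In Tconv cells of the CD127-positive CD25-negative library it was 0.10 over 18 members, with 17 above 0 and 12 above the 0.07 of all genes. No member was called at 2-fold: 0 of 21 in transTreg cells, where 3.99% of genes were called higher and 3.23% lower, 0 of 18 in endoTreg cells, where 2.44% and 0.457% were, and 0 of 18 in Tconv cells, where 0.0% and 0.115% were. At 1.5-fold HSPH1 was lower on day 20 in transTreg cells, with 18.8% of all genes, at a fold of 0.555 (0.445 to 0.686).

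HSPA8, with the most UMIs of any member, had folds on opposite sides of 1 in different libraries. Its day 20 over day 3 fold was 0.703 (0.673 to 0.735) in transTreg cells and 0.713 (0.679 to 0.749) in endoTreg cells. In Tconv cells it was 1.24 (1.20 to 1.28) in the CD127-positive CD25-negative library and 1.17 (1.13 to 1.20) in the CD127-positive CD25-positive library. Tconv cells of the CD25high CD127low library gave 0.877 (0.840 to 0.916), the direction of the endoTreg cells they were sorted with rather than that of the other Tconv cells. CCT5 gave 0.810 in transTreg and 0.859 in endoTreg cells, and 1.12 in CD127-positive CD25-negative Tconv cells, but its transTreg log2 value of -0.29 was 0.05 once centred on the median of all genes. HSPD1 gave 0.776 in transTreg, 0.705 in endoTreg and 0.776 in Tconv cells of the CD25high CD127low library, and 1.08 and 1.16 in Tconv cells of the CD25-positive and CD25-negative libraries. HSP90AB1 gave 0.706 (0.666 to 0.749) in endoTreg cells and 0.777 (0.739 to 0.817) in Tconv cells sorted with them. In transTreg cells it gave 0.933 (0.887 to 0.982) in CPM and 1.02 to 1.16 under the other scalings. DNAJA1 gave 0.759 (0.655 to 0.877) in transTreg cells and 1.13 (0.944 to 1.35) in endoTreg cells. Once centred on the median of all genes, the transTreg log2 values were -0.02 for DNAJA1, -0.003 for HSPD1 and -0.17 for HSPA8. HSP90B1 gave 1.13 in both transTreg and endoTreg cells, with limits that included 1. In CD127-positive CD25-negative Tconv cells it gave 1.15 (1.01 to 1.30).

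Small groups of cells found outside their usual sort were also read. The 63 Tconv cells of the CFSE-positive library of day 20 held 3533 CPM (3234 to 3851) of all members together, against 3736 CPM in the transTreg cells of that library and 3688 CPM in CD127-positive CD25-negative Tconv cells. On day 3 the 51 such cells held 4460 CPM (4110 to 4832), against 4748 CPM in transTreg cells and 3338 CPM in CD127-positive CD25-negative Tconv cells. For HSPH1 they had 74.3 CPM (35.6 to 137) on day 3, from 10 UMIs, against 10.7 CPM in CD127-positive CD25-negative Tconv cells. EndoTreg cells of the CD127-positive CD25-positive library held 4268 CPM (4115 to 4426) on day 20 and 4320 CPM (4185 to 4459) on day 3. In CPM they thus lacked the lower day 20 value of endoTreg cells in the CD25high CD127low library. This contrast may depend on the scale. The other named genes took 54.0% of their UMIs on day 20 and 46.5% on day 3, against 46.7% and 47.9% in endoTreg cells of the CD25high CD127low library. With 1 library per sort and day, a difference between days and a difference between library preparations cannot be told apart.

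**Figure D4:**
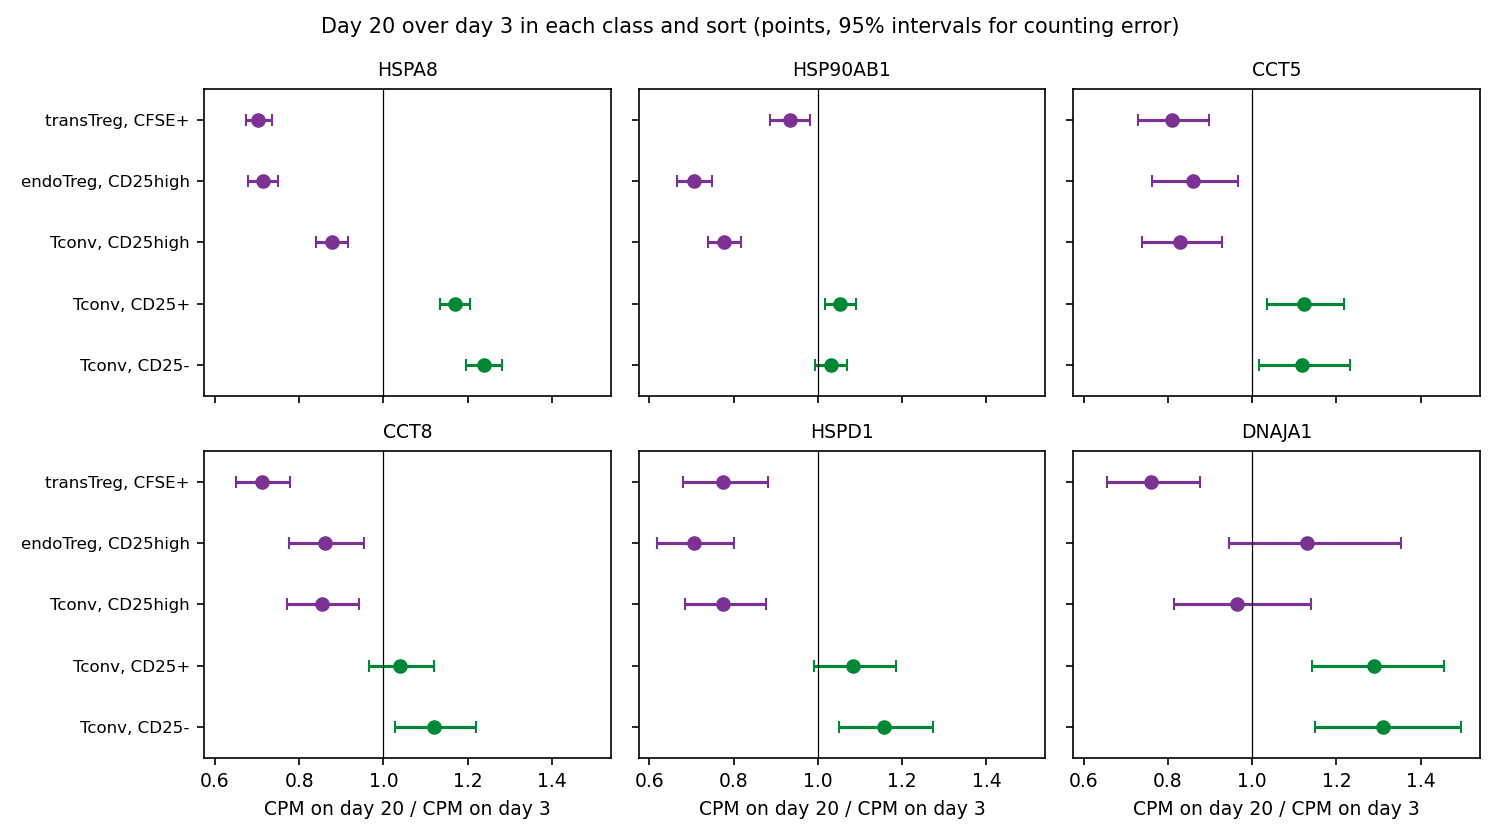
Day 20 over day 3 fold of 6 members (panels) by class and library, on a linear axis with exact 95% counting limits, in purple for the CFSE-positive and CD25high CD127low libraries and in green for the CD127-positive libraries; the line at 1 marks equal levels. HSPA8 lies at 0.703 in transTreg and 0.713 in endoTreg cells but at 1.24 in CD127-positive CD25-negative Tconv cells.

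Of the authors' 10 clusters, clusters 3 to 10 were compared on both days, and 11 of the 20 members that reached 50 CPM in a cluster on each day had the same highest cluster on both days. Cluster 3, the endoTreg cluster with most of the effector cells, was highest for 7 of them, and cluster 5, a Tconv cluster, for 4. How often all genes peak in these clusters was not counted, so this is not read as a trait of the members. Of clusters 3 to 10, these clusters also had the largest shares of UMIs in the other named genes. Those shares were 53.6% (day 20) and 55.2% (day 3) in cluster 3, and 54.9% and 53.1% in cluster 5. In cluster 3 CCT5 had 198 CPM on day 20 and 221 CPM on day 3, against 113 CPM at the lowest on day 20 (cluster 10) and 96.9 CPM on day 3 (cluster 6). HSP90AB1 was lowest in cluster 3 on day 20, at 524 CPM, and highest in cluster 6, a Tconv cluster, at 856 CPM. On day 3 HSP90AB1 peaked in cluster 4, the endoTreg cluster of mostly naive-like cells, at 1027 CPM.

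Cluster 5 had the highest summed level of the endoplasmic reticulum members, of which DNAJC1 differed most. It held 654 cells on day 20 and 564 on day 3, nearly all from the CD127-positive CD25-negative sort, and its leading genes were the cytotoxic and natural killer genes GZMB, NKG7, CST7 and GNLY. Its level of CD3D, part of the T cell receptor complex, stood at 1609 CPM on day 20 and at 1591 CPM on day 3, and its summed natural killer markers at 195 CPM and 225 CPM, of which the killer receptor gene KLRD1 gave 98.2 CPM and 85.7 CPM. Their part in the values below was not tested. The 13 members of the compartment summed to 621 CPM in cluster 5 on both days, against 233 to 384 CPM in the other clusters. Of the compartment's members at the floor on both days, DNAJC1, DNAJC25, HSP90B1 and HSPA5, the first, a J protein of the endoplasmic reticulum membrane, had the largest ratio to the other Tconv clusters. HSP90B1 was also highest in cluster 5 on both days. HSPA5 was highest there on day 3 only, and on day 20 cluster 8 had 145 CPM against 143 CPM in cluster 5. DNAJC25 was highest there on day 20 only, and on day 3 cluster 3 had 71.4 CPM against 56.2 CPM in cluster 5.

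In cluster 5 DNAJC1 had 183 CPM on day 20 and 153 CPM on day 3, against 18.7 CPM and 15.7 CPM in the Tconv clusters 6 to 10 together. Its log2 ratios of 2.75 and 2.66 placed it at rank 32 of the 2034 genes measured in this comparison. DNAJC1 passed the floor of 50 CPM only through cluster 5, where it had to differ. It was the member higher by 2-fold on both days there, as were 8.26% of those genes. It was named for this value, outside the rule for named genes. HSP90B1 had 128 CPM in cluster 5 on day 20 and 124 CPM on day 3, against 69.9 CPM and 55.7 CPM in clusters 6 to 10. HSPA5 had 143 CPM and 202 CPM, against 100.4 CPM and 94.1 CPM. HSPD1 was lower, at 70.8 CPM and 57.2 CPM against 117 CPM and 116 CPM. Thinned to 1000 UMIs, 18.9% of cluster 5 cells on day 20 and 16.3% on day 3 had a DNAJC1 UMI, against 0.956% and 0.858% in cluster 6. Of clusters 3 to 10, cluster 6 had the lowest DNAJC1 level on both days, at 14.3 CPM and 11.7 CPM. Median UMIs per cell were 1528.5 and 1622 in cluster 5, against 2371 and 2612 in cluster 6. As a set the members lay below all genes. The median log2 ratio of the 19 measured, DNAJC1 included, was 0.08 on day 20 and 0.21 on day 3, beside 0.34 and 0.35 for all genes.

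**Figure D5:**
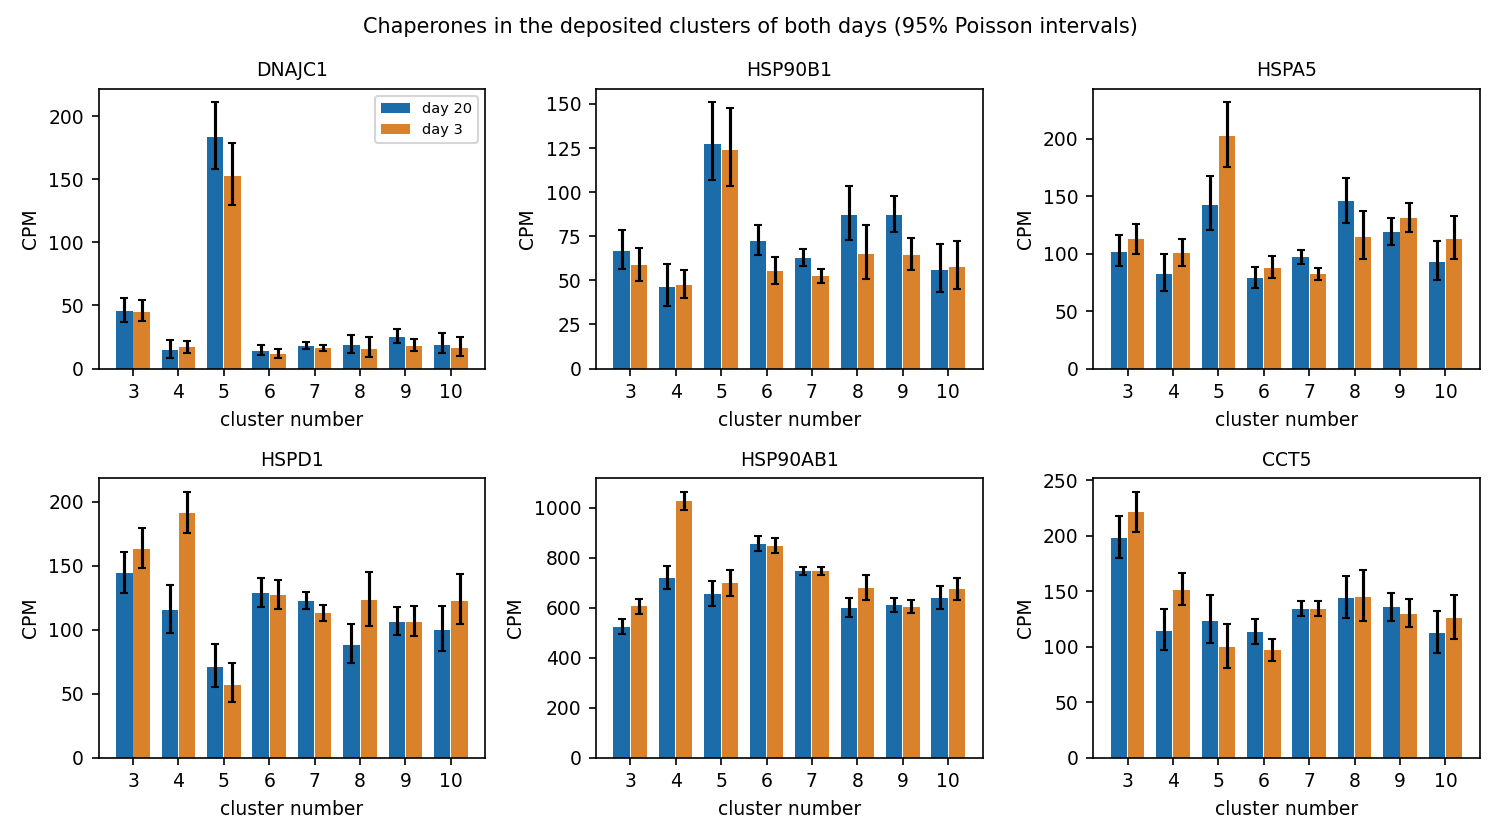
CPM of 6 members (panels) in the authors' clusters 3 to 10, which occur on both days, on day 20 and day 3 (colours), with exact 95% counting limits as bars. DNAJC1 stands out in cluster 5, at 183 CPM on day 20 and at 153 CPM on day 3.

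Other genes of the folding network were read from lists. Of 23 cochaperones of HSP90 and HSP70, 22 were found, of 5 heat shock factor genes 5, of 12 prefoldin genes and chaperonin partners 12, of 10 mitochondrial partners 8, and of 21 genes of endoplasmic reticulum folding and the unfolded protein response 18. None was called on both days between 2 classes. On day 3 the list medians of transTreg over Tconv cells were 0.55 for cochaperones, 0.65 for heat shock factors, 0.74 for prefoldins, 0.54 for mitochondrial partners and 0.36 for the endoplasmic reticulum list, beside 0.53 for all genes. Of 11 immediate early genes, which respond within minutes to handling of cells, 8 were found, and ZFP36 alone reached the floor, at 121 to 178 CPM by library. HSF1, the master regulator of the heat shock response, had 62.0 CPM in transTreg cells on day 20 and 86.2 CPM on day 3, against 64.9 CPM and 59.8 CPM in endoTreg cells.

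Among these lists, prefoldin genes held most of the 2-fold values of single days. Prefoldin hands unfolded actin and tubulin to TRiC. PFDN5 had 295 CPM in transTreg cells on day 20 and 44.8 CPM on day 3, and 436 CPM and 206 CPM in endoTreg cells. In Tconv cells PFDN5 had 303 CPM on day 20 and 451 CPM on day 3, so the transTreg value of day 3 was the lowest of all. PFDN5 was called higher on day 20 than on day 3 in transTreg cells (log2 2.48) and in endoTreg cells (log2 1.05), as were 3.99% and 2.44% of all genes tested. PFDN1, of the same complex, ran the other way, at 155 CPM in transTreg cells on day 3 against 70.5 CPM in endoTreg and 54.4 CPM in Tconv cells. It was 2-fold higher on that day against both classes, as were 3.95% of all genes against endoTreg and 14.7% against Tconv cells.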

How the data were processed

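Whole-number UMI counts per gene and cell, deposited by the authors with a gene table and a cell annotation (library, class, cluster and finer name), came from droplet libraries made with 10x 3′ v2 chemistry per the labels' protocols. Reads were processed with Cell Ranger 2.1.1 per the submitters' processing notes. For the build and annotation, the version was not given in the sources used here. Summed counts of all 25397 cells equalled the deposited totals. The labels gave 1 library for each of 4 sorts and 2 days, from 2992787 to 12149559 UMIs.

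Counts were summed per class, finer name or cluster in each library and divided by the unit's total (CPM). Ratios used log2(CPM + 10). A gene needed 50 CPM in either group and a 2-fold ratio to be called, on both days between classes. With no replicates no test was run, and limits (95%, exact Poisson for CPM, conditional binomial for folds, binomial for shares) cover counting error only. For shares, cells were thinned to 1000 UMIs. No doublet caller was run; as an alternative, 1194 cells were left out that carried 3 or more UMIs of markers of platelets, monocytes, B cells or red cells, or more than 2 times their library's median UMIs. Classes were read from the column of cell types, whereas the planned table named another column, which holds the libraries.

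The genes named by rule were any member called, the 12 members with the highest mean CPM over libraries, every HSPA, HSP90, HSPH1, HSPD1, TCP1 and CCT member at 50 CPM or more in a class and day, and the J or small heat shock members ranked highest by the smaller of their 2 daily ratios. The members and lists were chosen with earlier results of these data known. Tools were Python 3.11.15 (numpy 2.4.6, pandas 2.3.3, scipy 1.17.1, matplotlib 3.10.9), and R 4.3.3 with edgeR 4.0.16 and DESeq2 1.42.0, used for scaling factors only.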

Additional observations from a re-analysis of the deposited data

Results flagged for a closer look

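HSPA8 and CCT5 had day 20 over day 3 folds on opposite sides of 1 in different sorted libraries, with limits that all excluded 1. Over all cells of a library, the HSPA8 fold was 0.708 in the CFSE-positive and 0.797 in the CD25high CD127low library, but 1.13 in the CD127-positive CD25-positive and 1.24 in the CD127-positive CD25-negative library. In the CFSE-positive library HSPA8 had 847 CPM (day 20) and 1196 CPM (day 3), and in the CD127-positive CD25-negative library 934 and 752 CPM. The CCT5 folds were 0.811 and 0.852 in the CFSE-positive and CD25high CD127low libraries, against 1.1 and 1.11 in the CD127-positive libraries. In transTreg cells the CCT5 log2 value of -0.29 was 0.05 once centred on the median of all genes, so its direction depends on the scale. The difference between libraries was not tested, since each sort and day had 1 library.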

How the results depend on the processing

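No paired analysis was possible because each sort and day had 1 library and the labels give no replicate numbers. The count of members called at 2-fold stayed at 0 in each of the 6 comparisons under every alternative, except for HSPH1: 1 member was called between transTreg and Tconv cells on day 3 alone, and 1 between day 20 and day 3 in transTreg cells at 1.5-fold. Single-gene ratios kept their place in 1621 cases and moved by more than their counting interval in 269, most of them with TMM factors (50), median-of-ratios factors (64), totals of other named genes (58) or centring on the all-gene median (76). The last 2 and the single-day calls were chosen after seeing the data. Without thinning, the HSPH1 shares were 8.46% and 16.4% of transTreg cells on day 20 and day 3, 5.01% and 9.61% of endoTreg cells, and 3.26% and 2.64% of Tconv cells.

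Counts of all genes called depended more on the setting. Between transTreg and endoTreg cells, 10 genes were higher and 22 lower, against 28 and 53 with no filter, 22 and 52 per UMI of other named genes, 87 and 67 on day 3 alone, 41 and 53 at 1.5-fold, 53 lower on day 20 alone, and 5, 6 and 2 higher with median-of-ratios factors, centring and a pseudocount of 30 CPM. Between transTreg and Tconv cells, 36 were higher and 32 lower, against 19 and 42 with TMM, 20 and 40 with median-of-ratios, 17 and 40 centred, 76 and 59 with no filter, 62 and 65 on other named genes, 333 and 169 on day 3 alone, 114 and 52 at 1.5-fold, and 19 higher at 30 CPM. Between endoTreg and Tconv cells of 1 library, 19 were higher and 7 lower, against 17 and 12 with TMM, 16 and 11 with median-of-ratios, 16 and 10 centred, 34 and 14 with no filter, 33 and 23 on other named genes, 40 and 20 with the other Tconv cells, 35 and 12 on day 3, 30 and 17 on day 20, 61 and 17 at 1.5-fold, and 4 lower at 30 CPM. For day 20 over day 3 in transTreg cells, 89 were higher and 72 lower, against 106 and 43 with TMM, 125 and 31 with median-of-ratios, 157 and 26 centred, 235 and 52 on other named genes, 59 and 36 at 30 CPM, and 177 and 420 at 1.5-fold. In endoTreg cells, 48 were higher and 9 lower, against 24 and 12 with TMM, 30 and 11 with median-of-ratios, 101 and 16 on other named genes, 77 and 14 at 1 CPM, 19 and 5 at 30 CPM, 195 and 33 at 1.5-fold, and 16 lower with no filter. In Tconv cells, 0 were higher and 2 lower, against 1 higher over all cells, 4 lower at 1 CPM or on other named genes, 0 lower without doublet-like cells, and 11 lower at 1.5-fold. The causes were not tested.

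Depth limits the members under 10 CPM and the groups of few cells, such as the 57 transferred cells in transition of day 20, whose HSPH1 level of 74.6 CPM has limits of 37.3 to 134 CPM.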

Other observations

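Members outside the rule for named genes gave a few further values. DNAJB1, the heat-inducible J protein, had 12.9 CPM in transTreg cells on day 20 and 28.1 CPM on day 3, against 17.3 and 15.4 CPM in endoTreg cells and 13.4 and 9.01 CPM in CD127-positive CD25-negative Tconv cells. All of these lie under the floor of 50 CPM. HSPB1 had 0.359 CPM in transTreg cells on day 20 and 1.0 CPM on day 3, against 4.26 and 3.96 CPM in CD127-positive CD25-negative Tconv cells.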
